A study of Homo sapiens with 30 samples.

Results

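Replication-dependent histone genes were taken as all genes whose symbol starts with HIST1H, HIST2H, HIST3H or HIST4H, and 63 such symbols were found. HIST2H2AA3 and HIST2H2AA4, HIST2H3A and HIST2H3C, and HIST2H4A and HIST2H4B carry the same values in every library, so each pair was counted once, which leaves 60 members among 18159 genes measured in either cell line. Of these, 51 were listed in the OPM2 cell line and 58 in the Delta47 cell line, and 34 reached a group mean of 1 or more in at least 1 line. The study asked how the transcription factor forkhead box M1 (FOXM1) shapes gene expression in multiple myeloma, a cancer of plasma cells, by removing FOXM1 from the human myeloma cell lines OPM2 and Delta47 and putting it back.

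WT stands for unedited cells of either line. KO1 and KO2 are FOXM1 knockout clones of each line, each a single clone picked by limiting dilution after electroporation of Cas9 protein loaded with guide RNAs against exon 2 of FOXM1. KO1EV is OPM2 KO1 with an empty vector. KO1R in OPM2 and KO2R in Delta47 are knockout clones that received a lentiviral vector encoding the FOXM1c isoform and were sorted on GFP. Each group had 3 libraries, and 27 of the 30 samples were used. The Delta47 empty-vector group is not analysed here, so in Delta47 what the vector does and what FOXM1c does cannot be told apart. Nothing in the labels says that the 3 libraries of a group came from separate cultures, so p-values measure only the spread between these libraries, which may be technical.

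Replication-dependent histone genes encode the core histones H2A, H2B, H3 and H4, around which DNA is wrapped in the nucleosome, and the linker histone H1, which binds the DNA between nucleosomes. They lie in clusters, are transcribed mainly in S phase with the help of the coactivator NPAT, and their messenger RNAs normally end in a short stem-loop bound by SLBP instead of a poly(A) tail. Some of them also give polyadenylated transcripts when processing at the stem-loop is bypassed and a poly(A) signal further downstream is used. The libraries were made from poly(A)-selected RNA, so the values below are levels of polyadenylated transcripts, and stem-loop-ended histone messages, the usual bulk of these transcripts, were not measured.

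The stem-loop is shown because it is the feature that sets these genes apart from nearly all others. It was found in the GENCODE 29 transcript models of 24 of the 60 members, and the other 36 models held none, many of them ending at or near the stop codon. Each sequence below is 5′ to 3′, 16 bases long, with the pairing stem in capitals and the loop in lower case.
Stem-loop of 13 members (H2A, H2B and H3 genes, HIST1H2AC, HIST2H2AA3 and HIST2H2BE among them): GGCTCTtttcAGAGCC
Stem-loop of 4 members (HIST1H2BC, HIST1H2BD, HIST1H2BF and HIST1H3G): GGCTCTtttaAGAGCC
Stem-loop of 5 members (the H4 genes HIST1H4B, HIST1H4E, HIST1H4H, HIST1H4J and HIST4H4): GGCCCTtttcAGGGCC
Stem-loop of 2 members (the H4 genes HIST1H4I and HIST2H4A): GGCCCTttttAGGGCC

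The stem of the H4 genes differed from that of the H2A, H2B and H3 genes by 1 base pair, and the loop also varied. In 17 of the 24 models the transcript ran on for more than 100 bases past the stem-loop, and 12 of these held AATAAA or ATTAAA, the common poly(A) signals, after it. HIST1H2AC ran on for 1128 bases, HIST2H2BE for 1729 and HIST2H4A for 1167, whereas HIST2H2AA3 ended 35 bases after the stem-loop. A transcript model that runs on is a description of the annotation and does not show which end the reads came from.

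The 250 bases before the start site are printed for the members that the results below turn on. They come from RefSeq on GRCh38.p14, in which 55 of the 60 members were matched. Capitals mark every match, on either strand, to 6 motifs, namely CCAAT (the CCAAT box), ATTTGCAT (the octamer), TATAAA (the TATA box), TTTGAA (the core of the cell cycle homology region), TGTTTAC (a forkhead site) and TTTCGCGC (an E2F site). None of these motifs is contained in another, and overlapping matches share their capitals.
HIST1H1C, chr6:26056471-26056720, minus strand: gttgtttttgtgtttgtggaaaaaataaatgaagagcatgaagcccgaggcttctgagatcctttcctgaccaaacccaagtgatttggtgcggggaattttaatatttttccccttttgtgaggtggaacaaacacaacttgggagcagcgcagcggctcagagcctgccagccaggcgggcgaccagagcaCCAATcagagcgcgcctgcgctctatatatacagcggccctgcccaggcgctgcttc
HIST1H2BK, chr6:27146859-27147108, minus strand: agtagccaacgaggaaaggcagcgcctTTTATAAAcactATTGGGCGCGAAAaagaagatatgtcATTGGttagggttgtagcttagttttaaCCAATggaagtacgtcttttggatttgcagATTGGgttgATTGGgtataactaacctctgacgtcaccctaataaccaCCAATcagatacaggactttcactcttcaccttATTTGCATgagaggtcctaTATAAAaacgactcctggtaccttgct
HIST2H2AA3, chr1:149842751-149843000, minus strand: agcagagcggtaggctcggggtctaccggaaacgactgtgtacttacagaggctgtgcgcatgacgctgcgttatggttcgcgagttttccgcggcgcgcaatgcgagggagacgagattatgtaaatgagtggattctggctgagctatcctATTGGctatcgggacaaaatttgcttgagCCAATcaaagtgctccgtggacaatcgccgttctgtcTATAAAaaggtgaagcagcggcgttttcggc
HIST1H2AC, chr6:26123922-26124171, plus strand: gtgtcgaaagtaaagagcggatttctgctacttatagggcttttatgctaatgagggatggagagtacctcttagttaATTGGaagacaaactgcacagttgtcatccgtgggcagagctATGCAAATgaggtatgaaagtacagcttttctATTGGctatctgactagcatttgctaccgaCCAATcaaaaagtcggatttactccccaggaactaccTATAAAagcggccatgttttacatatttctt
HIST2H2BE, chr1:149886683-149886932, minus strand: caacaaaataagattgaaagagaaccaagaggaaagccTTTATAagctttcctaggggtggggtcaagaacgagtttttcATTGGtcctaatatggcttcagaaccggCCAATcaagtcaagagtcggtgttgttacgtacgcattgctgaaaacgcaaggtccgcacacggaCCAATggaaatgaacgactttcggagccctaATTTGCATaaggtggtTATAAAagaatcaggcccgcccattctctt
HIST2H4A, chr1:149832407-149832656, plus strand: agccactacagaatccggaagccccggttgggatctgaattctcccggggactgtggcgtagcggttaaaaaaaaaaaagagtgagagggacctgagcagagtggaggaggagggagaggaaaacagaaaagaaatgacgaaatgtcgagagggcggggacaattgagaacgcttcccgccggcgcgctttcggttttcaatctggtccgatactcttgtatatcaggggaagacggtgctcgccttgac

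The CCAAT box was present before 47 of the 55 matched members, which is 85.5%, against 37.0% of 27305 RefSeq genes with a window of the same length. The octamer, bound by POU2F1, stood before 24 members, 43.6% against 2.03% of all genes, and 23 of those 24 were H2A or H2B genes. TATAAA stood before 38 members (69.1% against 13.0%), TTTGAA before 19 (34.5% against 16.1%) and TTTCGCGC before 11 (20% against 0.542%). TGTTTAC stood before 0 of the 55 members and before 3.66% of all genes, which says only that these letters are not in these windows. The window shown for HIST2H4A held none of the 6 motifs. A match is a run of letters and no evidence of binding.

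The OPM2 values are FPKM, fragments scaled to transcript length and library size, and levels of different genes were ranked only in that line. For Delta47 the unit is not named in the sources used here, so it is called the authors' expression value, and no level was tested across the 2 tables, which were normalised separately. The read depth behind the values is unknown. FOXM1 itself averaged 176 ± 0.804 (SD, n = 3) in OPM2 WT, 92.1 ± 1.08 in KO1, 62.1 ± 6.69 in KO2, 107 ± 1.85 in KO1EV and 278 ± 14.4 FPKM in KO1R. In Delta47 the FOXM1 average was 88.9 ± 1.88 for WT, 47.9 ± 1.85 for KO1, 46.2 ± 0.883 for KO2 and 99.4 ± 4.37 for KO2R. The transcript thus remained in every knockout clone at a lower level than in WT, and its order across groups followed the labels. All 7 plasma cell markers averaged 1 or more in both lines (summed level 2223 to 2955 FPKM in OPM2). The markers of B cells, T cells and myeloid cells summed to at most 1.07 FPKM in any OPM2 library. In Delta47 the epithelial markers summed to 5.49 to 12.9 and the stromal and endothelial ones to 1.56 to 15.8, and their part in the results was not tested. The libraries KO2 replicate 3 and KO1EV replicate 3 of OPM2 stood apart in earlier results of these data, with an SD of gene-wise deviations from the group mean of 0.533 and 0.271 on the log2 scale (0.1 to 0.158 in the WT, KO1, KO1R and other KO1EV libraries, and 0.282 and 0.277 in KO2 replicates 1 and 2, above KO1EV replicate 3).

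A few members carried most of the signal. HIST1H1C, a linker histone gene, HIST1H2BK, an H2B gene, and HIST2H2AA3, an H2A gene, together made up 54.1% to 77.9% of the summed level of all members in the OPM2 libraries. In OPM2 WT cells HIST1H1C was highest at 23.6 ± 0.624 FPKM, followed by HIST1H2BK at 13.1 ± 0.901 and HIST2H2AA3 at 10.95 ± 1.55, and the libraries of the last 2 overlapped. HIST1H4C, an H4 gene, came next at 7.85 ± 2.08 FPKM in OPM2 WT. In Delta47 no library had HIST1H4C above 0.66.

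By class, the 34 members that reached a group mean of 1 were 2 of 5 linker histone genes, 10 of 14 H2A genes, 12 of 16 H2B genes, 5 of 12 H3 genes and 5 of 13 H4 genes. No HIST3H gene was listed, and HIST4H4, the one HIST4H gene, stayed below 1. The 26 members below 1 included the linker genes HIST1H1B and HIST1H1D and the testis linker gene HIST1H1T. Their group means did not pass 0.673 FPKM in OPM2 or 0.897 in Delta47.

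**Figure D1:**
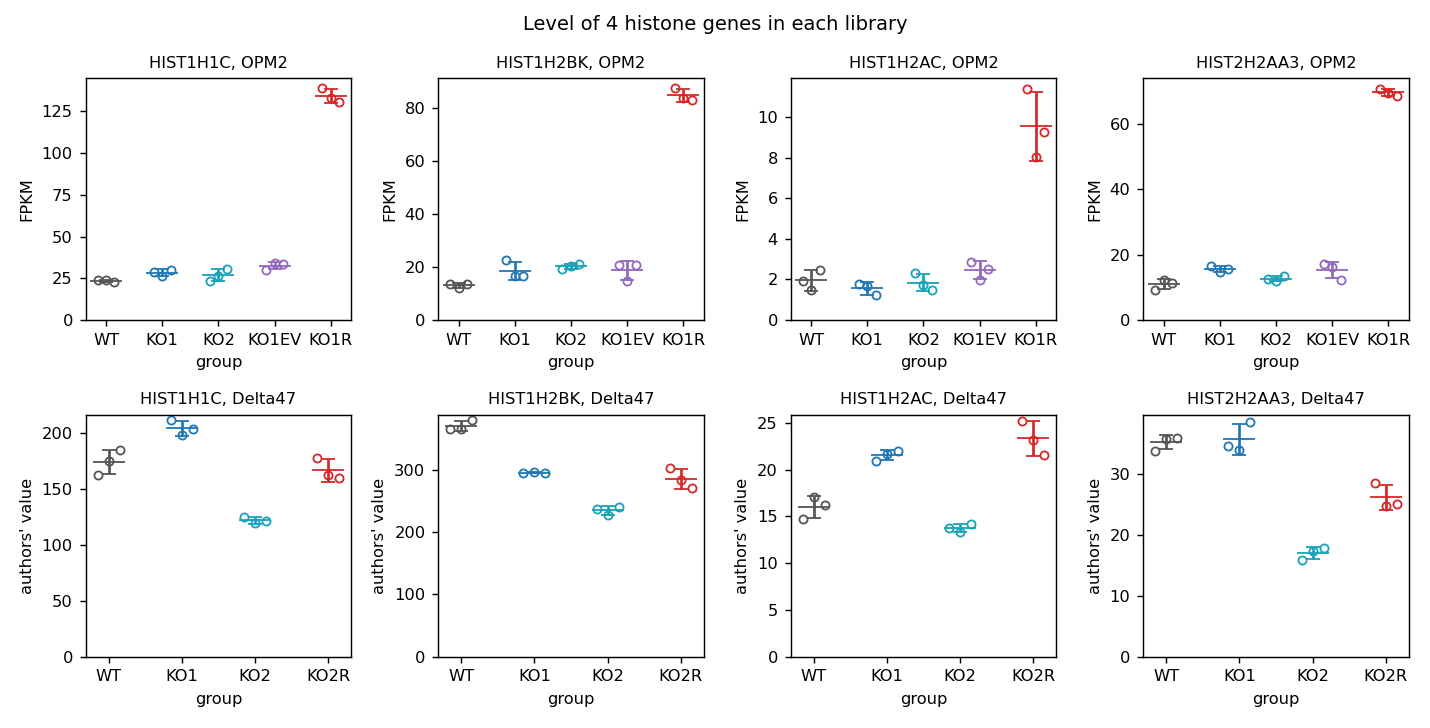
The plot shows each library's level (points) with the group mean and SD (bars) of HIST1H1C, HIST1H2BK, HIST1H2AC and HIST2H2AA3, by group, in OPM2 (FPKM, upper row) and Delta47 (the authors' expression value, lower row). The 3 KO1R libraries lie above all other OPM2 libraries for all 4 genes (HIST1H1C 131 to 139 FPKM), and in Delta47 the KO2 libraries are the lowest for all 4.

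Testing used limma on log2(value + 1) on every gene that reached 1 in 3 or more libraries, with Benjamini-Hochberg adjustment over all of them. Genes with an adjusted p below 0.05 count as called. Log2 fold changes are on that scale and understate the change of low genes. In OPM2 this left 19 members among 10309 genes, and in Delta47 31 members among 11001. HIST1H2AE, HIST1H4H, HIST1H2AI and HIST1H3D in OPM2, and HIST1H3B and HIST1H2AD in Delta47, passed that filter only when the libraries with the FOXM1c vector were counted, so the filter favours a higher value there and their calls support nothing. HIST1H2BG and HIST1H2BO had a KO1R mean of 1 or more in OPM2 and were not tested, since fewer than 3 libraries reached 1, and the same held for HIST1H4J in Delta47 KO2R.

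In OPM2 the FOXM1c vector went with the largest histone differences. In KO1R against KO1EV, 11 of the 19 tested members rose and 0 fell, where 3.1% of all tested genes rose and 5.12% fell (8.23% called in either direction). The median member difference was 0.75 on the log2 scale, against −0.06 over all tested genes. That median includes the 4 members that passed the filter only through KO1R and is the value of HIST1H2AE, 1 of them. A median without them is not given here. HIST1H1C, HIST2H2AA3 and HIST1H2BK were each about 4 times as high in KO1R, with ratios of means of 4.11, 4.56 and 4.52. Without the 4 members that passed only through KO1R, 8 of 15 rose, and without the 2 libraries that stood apart, 13 of 19. The share of all tested genes that rose without those 2 libraries is not given here. In bulk RNA, fewer cells in S phase and less of a transcript per cell cannot be told apart, in either direction.

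Among linker histones, HIST1H1C encodes one of the most abundant somatic H1 proteins. It measured, in FPKM, 24.2, 23.8 and 22.9 in WT, 28.7, 26.3 and 30.3 in KO1, 23.3, 26.6 and 30.6 in KO2, 30.2, 34.4 and 33.5 in KO1EV, and 139, 133 and 131 in KO1R. All 3 KO1R libraries were higher than every other library, and the other groups lay close together. The difference from KO1EV was 2.01 ± 0.09 (SE) on the log2 scale (limma adjusted p = 2.18e-08). No other H1 gene was tested in OPM2.

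H2A genes encode the partner of H2B in the nucleosome. HIST2H2AA3, listed with the same values as its copy HIST2H2AA4, measured, in FPKM, 9.22, 12.2 and 11.5 in WT, 16.6, 14.6 and 15.6 in KO1, 12.6, 11.9 and 13.6 in KO2, 17.1, 16.3 and 12.4 in KO1EV, and 70.7, 69.5 and 68.4 in KO1R. HIST1H2AC measured 1.93, 1.46 and 2.48 in WT, 1.79, 1.66 and 1.22 in KO1, 2.32, 1.74 and 1.49 in KO2, 2.85, 1.97 and 2.54 in KO1EV, and 11.4, 8.03 and 9.24 in KO1R. In both genes the KO1R libraries did not overlap any other group. HIST2H2AA3 rose by 2.13 ± 0.11 (adjusted p = 9.2e-08) and HIST1H2AC by 1.61 ± 0.16 (adjusted p = 3.23e-05) against KO1EV.

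The H2A genes did not all move. HIST2H2AC measured, in FPKM, 1.43, 2.11 and 2.99 in WT, 2.93, 4.24 and 2.9 in KO1, 3.44, 3.49 and 5.47 in KO2, 4.15, 2.14 and 3.05 in KO1EV, and 1.64, 2.38 and 1.84 in KO1R. HIST1H2AM measured 1.39, 1.68 and 0.71 in WT, 1.48, 2.94 and 1.4 in KO1, 2.11, 2.73 and 1.86 in KO2, 1.57, 1.7 and 2.06 in KO1EV, and 2.4, 2.9 and 2.16 in KO1R. HIST1H2AG measured 1.08, 2.32 and 1.11 in WT, 2.59, 1.43 and 2.05 in KO1, 2.74, 1.81 and 1.95 in KO2, 1.67, 1.38 and 1.86 in KO1EV, and 3.7, 1.88 and 3.08 in KO1R. The KO1R libraries of HIST2H2AC lay among or below those of the other groups, with a difference from KO1EV of −0.46 ± 0.22 (adjusted p = 0.225). HIST1H2AG differed by 0.53 (adjusted p = 0.151), HIST1H2AI by 0.55 (adjusted p = 0.229) and HIST1H2AM by 0.33 (adjusted p = 0.329), none of them past the threshold. HIST1H2AE rose by 0.75 (adjusted p = 0.0306). In all, 3 of the 7 tested H2A genes rose, HIST1H2AE among them. HIST1H2AE and HIST1H2AI passed the filter only through KO1R, so their values here support nothing.

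Of the 5 tested H2B genes, 4 rose. HIST1H2BK measured, in FPKM, 13.7, 12.1 and 13.6 in WT, 22.6, 16.5 and 16.5 in KO1, 19.3, 20.3 and 21.1 in KO2, 20.6, 14.7 and 20.9 in KO1EV, and 87.4, 83.7 and 83.1 in KO1R. Its lowest KO1R library was higher than its highest library of any other group, and the rise against KO1EV was 2.14 ± 0.13 (adjusted p = 3.45e-07). HIST1H2BD measured 2.15, 2.41 and 2.29 in WT, 3.36, 2.33 and 2.02 in KO1, 2.63, 2.15 and 2.37 in KO2, 2.89, 3.25 and 3.32 in KO1EV, and 7.85, 9.26 and 6.84 in KO1R. HIST2H2BE measured 5.45, 5.64 and 5.79 in WT, 6.05, 5.17 and 4.81 in KO1, 7.39, 7.08 and 8.25 in KO2, 5.53, 6.3 and 6.54 in KO1EV, and 13.2, 13.2 and 14.5 in KO1R. Both were also higher in every KO1R library than in any other library.

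HIST1H2BJ measured, in FPKM, 0.56, 0.28 and 0.44 in WT, 0.9, 0.9 and 1.0 in KO1, 0.14, 0.44 and 0.73 in KO2, 1.31, 1.15 and 2.24 in KO1EV, and 4.59, 4.2 and 3.95 in KO1R. HIST1H2BC measured 1.74, 2.88 and 1.47 in WT, 2.37, 2.86 and 2.73 in KO1, 2.58, 2.14 and 4.11 in KO2, 1.97, 3.25 and 2.87 in KO1EV, and 4.04, 6.15 and 3.96 in KO1R. For HIST1H2BJ the KO1R libraries stood above all others, and for HIST1H2BC they overlapped those of KO2. Against KO1EV, HIST1H2BD rose by 1.11 ± 0.13 (adjusted p = 0.000118), HIST1H2BJ by 1.05 ± 0.16 (adjusted p = 0.00104) and HIST2H2BE by 1.04 ± 0.08 (adjusted p = 4.46e-06). HIST1H2BC differed by 0.62 ± 0.21 (adjusted p = 0.0921). In KO1R the untested H2B genes HIST1H2BG and HIST1H2BO were at low levels. They measured 1.11, 0.77 and 1.29 for the first and 1.49, 0.87 and 1.67 for the second. Both are named because their KO1R mean, and no other OPM2 group mean, reached 1, so their level there supports nothing.

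Histones H3 and H4 form the inner tetramer of the nucleosome. Of their 6 tested genes, 3 rose, and HIST1H3D and HIST1H4H, 2 of these, passed the filter only through KO1R. HIST1H3H measured, in FPKM, 1.44, 1.02 and 1.19 in WT, 1.07, 0.61 and 0.87 in KO1, 1.17, 1.19 and 1.34 in KO2, 1.34, 1.33 and 1.53 in KO1EV, and 1.46, 2.15 and 1.2 in KO1R. The groups overlapped, and KO1R differed from KO1EV by 0.10 ± 0.13 (adjusted p = 0.636). HIST1H3D, the other tested H3 gene, rose by 0.62 (adjusted p = 0.021). HIST1H4C measured 6.83, 10.2 and 6.47 in WT, 9.88, 6.07 and 6.94 in KO1, 5.65, 7.52 and 6.73 in KO2, 6.32, 6.07 and 4.93 in KO1EV, and 5.83, 6.61 and 7.31 in KO1R. Its KO1R libraries lay inside the range of the others, with a difference of 0.16 ± 0.18 (adjusted p = 0.586).

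HIST2H4A, identical in value to HIST2H4B, measured, in FPKM, 2.8, 4.01 and 3.91 in WT, 2.9, 2.78 and 2.57 in KO1, 6.37, 5.57 and 1.6 in KO2, 2.63, 2.79 and 1.16 in KO1EV, and 7.92, 8.18 and 8.29 in KO1R. All 3 KO1R libraries were above all others, and the lowest KO2 and KO1EV libraries were the 2 replicate 3 libraries that stood apart. It rose by 1.56 ± 0.31 against KO1EV (adjusted p = 0.00754). HIST1H4H rose by 1.17 (adjusted p = 0.00234), and HIST1H4K differed by 0.58 (adjusted p = 0.381). With a pseudocount of 0.1 in place of 1, HIST1H4H, HIST1H2AE and HIST1H3D lost their call.

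**Figure D2:**
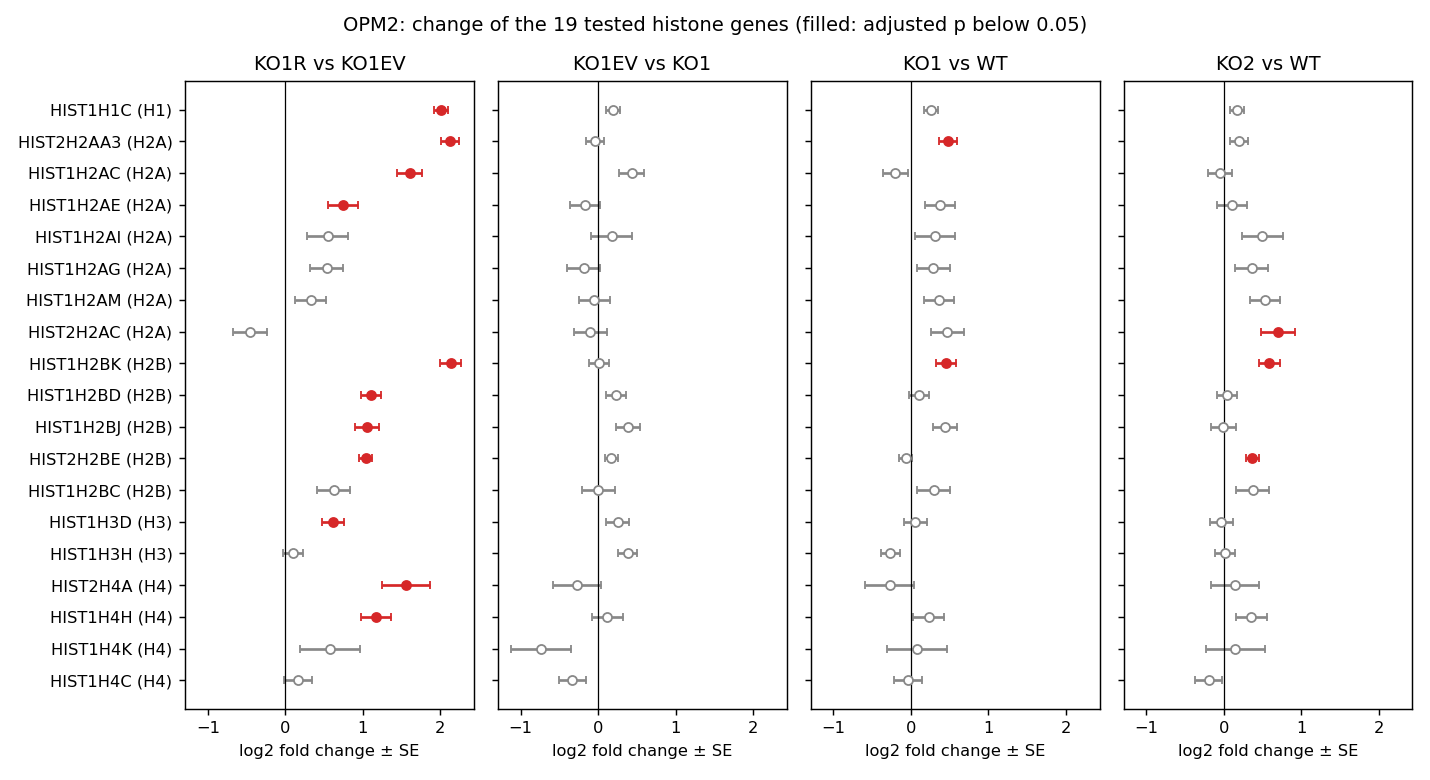
The plot gives the log2 fold change (points, filled where the adjusted p was below 0.05) with its standard error (bars) of the 19 tested members in OPM2 for KO1R against KO1EV, KO1EV against KO1, KO1 against WT and KO2 against WT. The values of KO1R against KO1EV run from −0.46 for HIST2H2AC to 2.14 for HIST1H2BK, and those of the knockout clones against WT do not pass 0.70.

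The count of members called in the vector control was near the low share of all tested genes, so it says nothing particular about the members. Member differences there ran from −0.74 (HIST1H4K) to 0.43 (HIST1H2AC). In KO1EV against KO1, 0 of 19 members were called by limma (4.95% of all tested genes were, 1.78% higher and 3.17% lower), 4 had an unadjusted p below 0.05, and the median was 0.01. The comparisons of KO1R with KO1 and with WT share the KO1R libraries with the one above. Against untransduced KO1, 12 members rose and 0 fell (6.26% of all tested genes rose and 15.4% fell, 21.7% in all), and 9 of 15 without the members that passed only through KO1R. Against WT, 14 rose and 0 fell (6.38% of all tested genes rose and 8.29% fell, 14.7% in all), and 10 of 15 without those members, with HIST1H2BK at 2.60 (adjusted p = 2.6e-08), HIST2H2AA3 at 2.57 (adjusted p = 6.96e-09) and HIST1H1C at 2.46 (adjusted p = 9.24e-10). HIST1H1C was 5.68 times its WT mean in KO1R, HIST1H2BK 6.45 times and HIST2H2AA3 6.35 times, so the level with FOXM1c went past that of unedited cells. FOXM1 in KO1R was 1.58 times its WT mean.

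The knockout clones differed little from WT in OPM2. In KO1 against WT, 2 members rose and 0 fell (14.5% of all tested genes rose and 6.72% fell, 21.2% in all), which were HIST2H2AA3 at 0.48 (adjusted p = 0.0108) and HIST1H2BK at 0.45 (adjusted p = 0.0277). In KO2 against WT, 3 rose and 0 fell (6.54% of all tested genes rose and 7.82% fell, 14.4% in all), namely HIST1H2BK at 0.59 (adjusted p = 0.00873), HIST2H2BE at 0.37 (adjusted p = 0.00966) and HIST2H2AC at 0.70 (adjusted p = 0.0473). The HIST2H2AC call was lost with the trend on length removed and without the 2 libraries that stood apart, where it was 0.52. HIST1H2BK was thus called in both clones, each tested against the shared WT libraries. Both counts are small, and neither stands far from the share of all tested genes. The KO1 calls became 0 without WT replicate 1 (5 at an unadjusted p below 0.05) and 7 without the 2 libraries that stood apart, of which 6 were higher and 1, HIST2H4A (−0.28), lower. Between the clones, HIST2H2BE was higher in KO2 by 0.44 (adjusted p = 0.00173) and HIST1H2BJ lower by a log2 change of −0.45 (adjusted p = 0.0473), 2 of 19 members where 29.9% of all tested genes were called (10.8% higher and 19.1% lower). Without KO2 replicate 3, or without both libraries that stood apart, 5 were called (2 higher and 3 lower), and without any 1 of the other KO1 or KO2 libraries 1 was, HIST1H2BJ losing its call. The shares of all tested genes called with libraries left out are not given here, so these moves are not read as particular to the members.

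Summed over all 51 listed members, the OPM2 level was 83.2 ± 5.28 (SD, n = 3) FPKM in WT, 102 ± 8.71 in KO1, 104 ± 4.66 in KO2, 107 ± 2.95 in KO1EV and 371 ± 10.1 in KO1R. The KO1R sum was 3.46 times that of KO1EV. Without HIST1H1C, HIST1H2BK and HIST2H2AA3 it was 82.7 against 40.6 FPKM, a ratio of 2.04. By class the ratio was 4.07 for H1, 3.48 for H2A, 3.50 for H2B, 1.44 for H3 and 1.94 for H4 genes. The ratio was lowest for the classes whose leading gene in KO1EV, HIST1H3H or HIST1H4C, was not called.

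**Figure D3:**
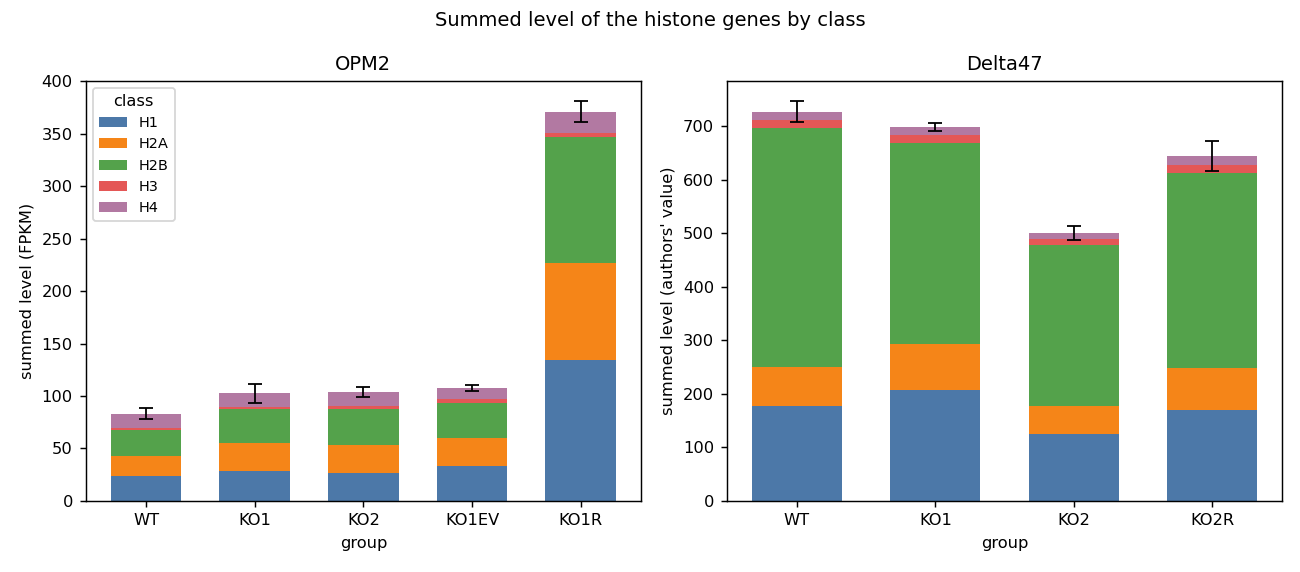
The plot shows the summed level of the members as stacked bars of the group means by histone class, with the SD over 3 libraries of the total, in OPM2 (FPKM) and in Delta47 (the authors' expression value). KO1R averages 371 FPKM against 107 in KO1EV, and in Delta47 the mean is lowest in KO2 (501) and 645 in KO2R.

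In Delta47 more members were higher than lower in the KO1 clone, and more were lower than higher in the KO2 clone. The first of these turned to 4 higher and 8 lower once a trend of the differences on transcript length was removed, and 56% of other short genes were higher in KO1 too. In KO1 against WT, 11 of 31 tested members rose and 4 fell, where 28.9% of all tested genes rose and 23.7% fell (52.6% in all). In KO2 against WT, 1 rose and 12 fell, where 28.4% of all tested genes rose and 15.2% fell (43.6% in all). Without the members that passed the filter only through KO2R, 11 of 29 rose and 3 fell in KO1, and 1 of 29 rose and 12 fell in KO2. The median member difference was 0.12 in KO1 and −0.26 in KO2, against 0.02 and 0.05 over all tested genes. The member that rose in KO2 was HIST1H2BH (0.59, adjusted p = 0.0156), a call lost without KO2 replicate 2, WT replicate 2 or WT replicate 3.

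The linker gene HIST1H1C had expression values of 163, 175 and 185 in the WT libraries, 212, 198 and 204 in those of KO1, 125, 119 and 122 in KO2, and 178, 162 and 159.5 in KO2R. Its KO1 libraries were above and its KO2 libraries below all WT libraries, and KO2R overlapped WT. KO1 differed from WT by 0.23 ± 0.05 (adjusted p = 0.000751) and KO2 by −0.51 ± 0.05 (adjusted p = 2.86e-07). With the trend on length removed the KO1 call was lost (0.05), and the KO2 value was −0.49. HIST1H1E, the other linker gene tested, gave −0.25 for KO1 (adjusted p = 0.255) and −0.26 for KO2 (adjusted p = 0.262).

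Among H2A genes, HIST2H2AA3 had values of 33.8, 35.7 and 35.9 in the WT libraries, 34.6, 33.8 and 38.5 in those of KO1, 15.9, 17.3 and 17.8 in KO2, and 28.5, 24.8 and 25.1 in KO2R. Its KO2 libraries were the lowest of all, with a difference from WT of −1.01 ± 0.06 (adjusted p = 9.35e-10), while KO1 overlapped WT. HIST1H2AC had values of 14.8, 17.1 and 16.2 in the WT libraries, 20.9, 21.6 and 22.02 in those of KO1, 13.7, 13.4 and 14.2 in KO2, and 25.2, 23.2 and 21.5 in KO2R. KO1 and KO2R were both above WT, and KO2 was below. KO1 differed from WT by 0.41 (adjusted p = 2.73e-05) and KO2 by −0.20 (adjusted p = 0.01).

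HIST1H2AG had values of 3.63, 4.43 and 6.05 in the WT libraries, 6.93, 4.68 and 5.22 in those of KO1, 3.94, 2.9 and 4.4 in KO2, and 6.29, 6.0 and 4.49 in KO2R. HIST1H2AM had values of 2.7, 2.86 and 2.72 in the WT libraries, 6.73, 5.31 and 4.85 in those of KO1, 2.87, 3.49 and 4.26 in KO2, and 4.0, 4.88 and 4.73 in KO2R. HIST2H2AC had values of 3.24, 3.99 and 3.24 in the WT libraries, 3.78, 5.97 and 4.07 in those of KO1, 3.27, 5.45 and 5.28 in KO2, and 5.6, 5.88 and 5.83 in KO2R. For HIST1H2AM all libraries of the other groups were above those of WT, for HIST1H2AG every group overlapped WT, and for HIST2H2AC the KO2R libraries were above WT. HIST1H2AM rose in KO1 by 0.81 (adjusted p = 1.34e-05). The largest member rise in KO1 was that of HIST1H2AJ, at 1.01 (adjusted p = 0.000369). In all, 5 of 10 H2A genes rose in KO1 and 0 fell, and in KO2 0 rose and 3 fell.

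The H2B gene HIST1H2BK had values of 366, 365 and 380.1 in the WT libraries, 295, 297 and 295 in those of KO1, 237, 227 and 239.8 in KO2, and 303, 284 and 271 in KO2R. Its KO1 and KO2 libraries were all below WT, KO2 lowest. The log2 change from WT was −0.32 ± 0.04 for KO1 (adjusted p = 3.11e-06) and −0.66 ± 0.04 for KO2 (adjusted p = 7.24e-10). HIST1H2BJ, another H2B gene, had values of 17.2, 17.1 and 13.8 in the WT libraries, 10.04, 11.5 and 12.3 in those of KO1, 7.82, 10.2 and 9.94 in KO2, and 11.9, 14.97 and 14.01 in KO2R. It was lower in both clones too (−0.47 and −0.72, adjusted p = 0.00132 and 3.2e-05).

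HIST1H2BD had values of 18.9, 18.7 and 18.8 in the WT libraries, 25.03, 25.2 and 24.5 in those of KO1, 19.8, 18.9 and 20.1 in KO2, and 21.8, 20.1 and 21.5 in KO2R. HIST1H2BC had values of 22.7, 18.4 and 22.4 in the WT libraries, 17.1, 21.2 and 19.2 in those of KO1, 16.4, 15.7 and 18.7 in KO2, and 19.6, 24.2 and 22.6 in KO2R. HIST2H2BE had values of 9.29, 9.21 and 8.96 in the WT libraries, 9.92, 10.6 and 9.71 in those of KO1, 6.58, 6.13 and 5.48 in KO2, and 5.6, 6.35 and 6.22 in KO2R. The KO1 libraries of HIST1H2BD were above all others, the KO2 and KO2R libraries of HIST2H2BE were below all WT and KO1 libraries, and every group of HIST1H2BC overlapped WT. For KO2 that overlap rested on replicate 3 (18.7 against 18.4 in WT replicate 2), and HIST1H2BC was called lower there (−0.30, adjusted p = 0.0137). HIST1H2BD rose in KO1 by 0.39 (adjusted p = 1.42e-06), and HIST2H2BE fell in KO2, with a log2 change of −0.53 (adjusted p = 5.61e-06). In KO1, 4 of the 11 H2B genes rose and 2 fell.

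The H3 gene HIST1H3H had values of 5.31, 4.97 and 6.83 in the WT libraries, 6.04, 4.97 and 6.99 in those of KO1, 3.92, 3.34 and 3.74 in KO2, and 5.88, 4.91 and 6.48 in KO2R. The H4 gene HIST2H4A had values of 9.41, 10.5 and 7.1 in the WT libraries, 6.88, 8.04 and 7.41 in those of KO1, 5.5, 4.78 and 4.68 in KO2, and 10.9, 6.86 and 7.91 in KO2R. In both genes every KO2 library was below all others, and the log2 changes from WT were −0.51 (adjusted p = 0.00166) and −0.73 (adjusted p = 0.000308). HIST1H4C, which was not tested, had values of 0, 0 and 0.34 in the WT libraries, 0.66, 0.49 and 0.33 in those of KO1, 0.51, 0.17 and 0.33 in KO2, and 0.17, 0.5 and 0.33 in KO2R. HIST1H3B and HIST2H3A were lower in KO1 (−0.49 and −0.47, adjusted p = 0.00755 and 0.00523). HIST1H3B passed the filter only with the KO2R libraries counted, so its call supports nothing. HIST1H4J, also not tested, measured 2.97, 0 and 0.83 in KO2R.

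With the FOXM1c vector in Delta47, 16 of the 31 tested members were higher in KO2R than in KO2 and 0 were lower, where 25.2% of all tested genes rose and 36.8% fell (62% in all). By class these were 1 of 2 linker, 7 of 10 H2A, 5 of 11 H2B, 2 of 5 H3 and 1 of 3 H4 genes. HIST1H2AC differed by 0.72 ± 0.06 (adjusted p = 3.76e-08), HIST2H2AA3 by 0.59 ± 0.06 (adjusted p = 3.96e-07), HIST1H1C by 0.44 ± 0.05 (adjusted p = 7.67e-07) and HIST1H2BK by 0.28 ± 0.04 (adjusted p = 9.07e-06). HIST2H2BE differed by 0.00. The median member difference was 0.31, against −0.05 over all tested genes. Without the 2 members that passed only through KO2R, 15 of 29 rose. The median of 0.31 includes those 2.

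The Delta47 rise moved with transcript length. The histone transcript models are short, with a median length of 549 bases among the tested members. Many without a stem-loop end at or near the stop codon, and those of HIST1H1C (642 bases) and HIST1H2BK (381 bases) hold none. For such members the length of the polyadenylated transcript measured is unknown. All values with the trend on length removed, here and elsewhere, rest on these model lengths. The 109 other tested genes with models of up to 600 bases had a median difference of 0.47 in KO2R against KO2, and 78.9% of them were called higher. Across all genes with a length, Spearman's rho between length and log2 difference was −0.55, given as a description. With the trend on length removed, 3 members were called higher, HIST1H2AC at 0.59, HIST1H2AG at 0.44 and HIST1H3H at 0.30, and 7 lower. The 13 other members called higher before were no longer called so, and 3 of them were now called lower. HIST1H2BK turned to −0.29, and HIST1H1C stood at 0.01, not called. The shares of all tested genes called after the removal, here and in the other comparisons, are not given.

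The OPM2 rise did not move with length in this way. The 101 other tested genes of up to 600 bases had a median difference of −0.03 in KO1R against KO1EV, and 4.95% of them were called higher. With the trend on length removed, 9 of the 11 calls remained, HIST1H2AE and HIST1H3D losing theirs, and HIST1H1C stood at 1.97. In Delta47 KO1 against WT the 109 short genes had a median of 0.17 with 56% higher, and the members split 4 higher and 8 lower once the trend was removed. In KO2 against WT the short genes had a median of −0.01 with 21.1% higher, and 11 of the 12 members lower there remained so, HIST2H2AA3 at −0.98.

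**Figure D4:**
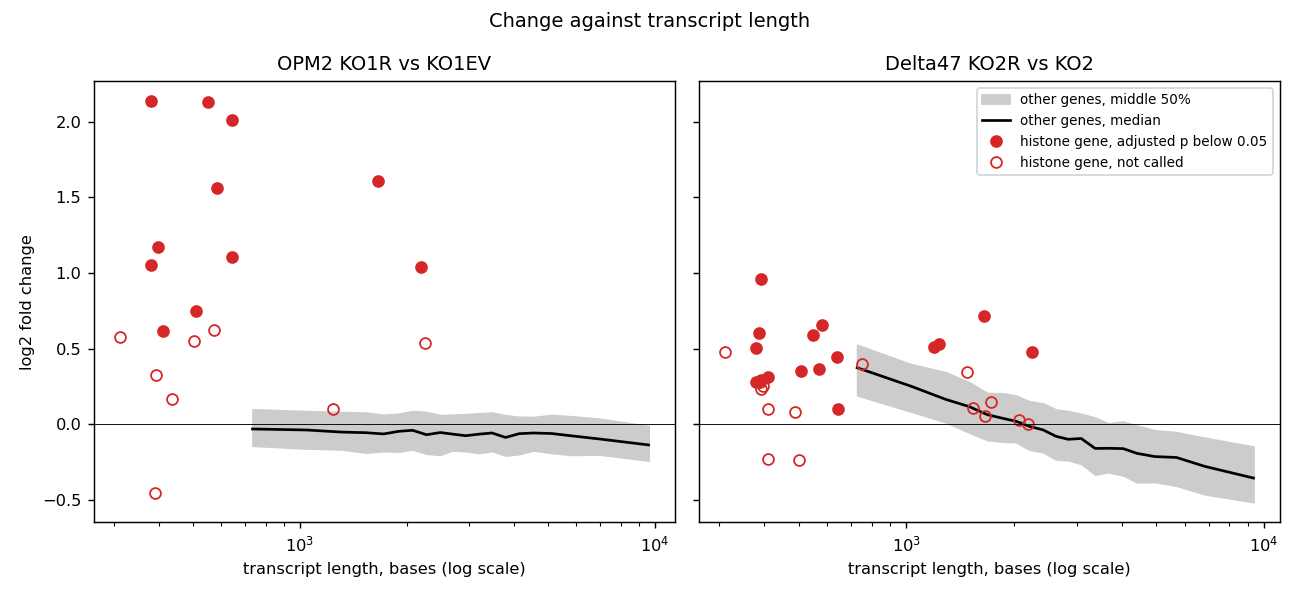
The plot sets the histone members (points, filled where called) against the median (line) and middle 50% (band) of the log2 fold change of other genes binned by transcript length (log scale, bases) for KO1R against KO1EV in OPM2 and KO2R against KO2 in Delta47. In OPM2 the line stays near 0 at all lengths with the called members above it (up to 2.14), and in Delta47 the line itself rises toward short transcripts.

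Compared with WT, Delta47 KO2R had 10 members higher and 5 lower (34.2% of all tested genes rose and 34.9% fell, 69% in all). With the trend on length removed the split turned to 3 higher and 13 lower, with HIST1H1C at −0.48 (called, against −0.06 and not called before) and HIST1H2BK at −0.88. Before that removal HIST2H2AA3 stayed lower (−0.42, adjusted p = 1.27e-05), as did HIST1H2BK (−0.37, adjusted p = 2.61e-07), while HIST1H2AC was higher (0.51, adjusted p = 9.48e-07). The sum of the members' values, in which the weight of each gene depends on the unnamed unit, averaged 727 for WT, 698 for KO1, 501 for KO2 and 645 for KO2R, so that KO2 was 0.689 times WT and KO2R 1.29 times KO2. In the KO2 clone 14 members were lower than in KO1 and 0 higher (17.2% of all tested genes were lower and 24.9% higher, 42.1% in all), HIST2H2AA3 by a log2 change of −1.03 (adjusted p = 2.74e-09) and HIST1H1C by −0.74 (adjusted p = 9.22e-09). The other short genes were lower there too, with a median of −0.19.

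**Figure D5:**
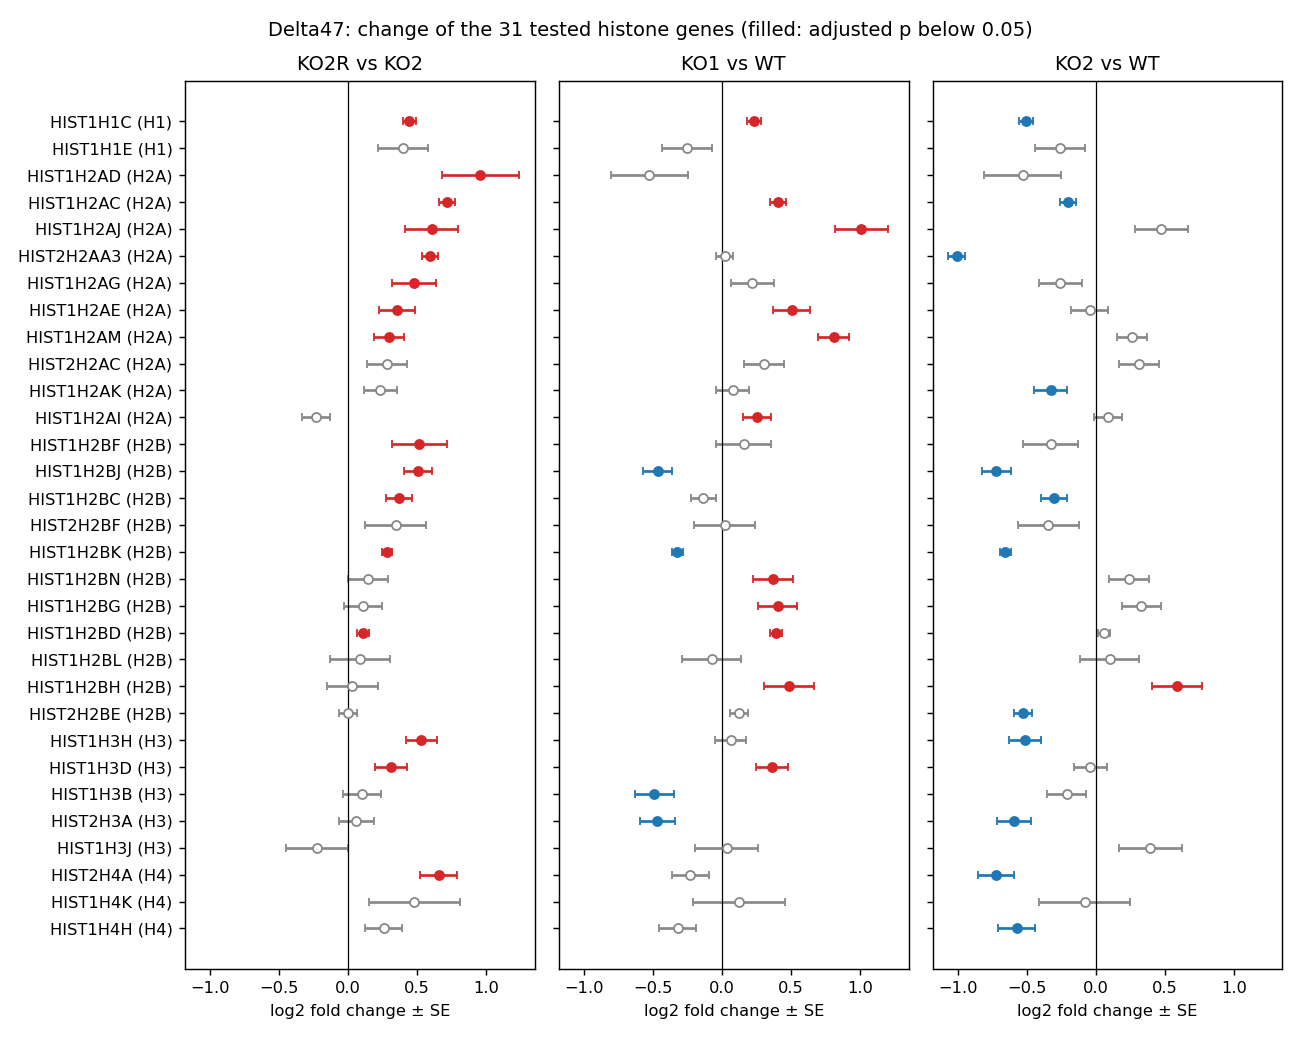
The plot gives the log2 fold change (points, filled where the adjusted p was below 0.05) with its standard error (bars) of the 31 tested Delta47 members for KO2R against KO2, KO1 against WT and KO2 against WT. In KO2 against WT the members reach −1.01 (HIST2H2AA3), and in KO2R against KO2 HIST1H2AC stands at 0.72, while HIST1H2AD, shown highest, passed the filter only with the KO2R libraries counted.

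Several members share a promoter region, with a gene transcribed away on each side. Both genes were tested in OPM2 for 3 of 10 such pairs. HIST1H2BC and HIST1H2AC, whose starts lie 246 bases apart, differed by 0.62 and 1.61 in KO1R against KO1EV, and only the second was called. HIST2H2BE and HIST2H2AC, 236 bases apart, differed by 1.04 (called) and −0.46 (not called). HIST1H2BJ and HIST1H2AG, 248 bases apart, differed by 1.05 (called) and 0.53 (not called). The difference between the genes of a pair was not tested.

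By the kind of transcript end in the GENCODE 29 models, each kind held members that rose in OPM2. Of the tested members whose model runs on past the stem-loop, 4 of 6 rose in KO1R against KO1EV, where 3.1% of all tested genes rose. Of those whose model ends near it, 3 of 4 rose, and of those with no stem-loop in the model, 4 of 9. Among the genes that rose, each kind includes 1 that passed the filter only through KO1R (HIST1H4H, HIST1H2AE and HIST1H3D, in that order), and the kinds were not tested against each other.

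The genes that make, process and load histones were taken from lists chosen with earlier results of these data known. In OPM2 KO1R against KO1EV, SLBP differed by −0.10 (adjusted p = 0.578), NPAT by 0.04 (adjusted p = 0.81) and the replication clamp PCNA by −0.10 (adjusted p = 0.606). Of 22 genes for histone transcription and 3′ end processing, 0 rose and 1 fell, SNRPD3 (−0.28, adjusted p = 0.0499). Of 25 S phase genes, 1 rose, the ribonucleotide reductase subunit RRM2 (0.39, adjusted p = 0.00235), and 1 fell, TYMS, thymidylate synthase (−0.30, adjusted p = 0.0256). Of 16 histone chaperones, 1 rose, ASF1B (0.28, adjusted p = 0.0108), and 2 fell, CABIN1 and HIRA. Of 13 genes for histone mRNA decay and polyadenylation, 0 were called by limma and 0 had an unadjusted p below 0.05. Of all tested genes 3.1% rose and 5.12% fell, so these small counts are not read as particular to the lists. The list medians were −0.04 for transcription and 3′ end processing, −0.07 for S phase, and −0.08 for both chaperones and decay and polyadenylation, against −0.06 over all tested genes.

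Many histone genes outside the replication-dependent clusters carry introns or poly(A) signals of their own, and many, though not all, are expressed through the cell cycle. When in the cell cycle the genes named below are expressed was not measured. Of 8 tested in OPM2, 2 rose in KO1R against KO1EV and 0 fell, where 3.1% of all tested genes rose and 5.12% fell. They were CENPA, the centromere H3 (0.53, adjusted p = 3.91e-05), and H1FX, a linker histone (0.84, adjusted p = 0.0456). H2AFZ differed by −0.05 (adjusted p = 0.753) and H3F3B by 0.18 (adjusted p = 0.122). Their list median was 0.12, against 0.75 for the replication-dependent members and −0.06 for all genes. The member median includes the genes that passed the filter only through KO1R, so the gap between the medians supports nothing.

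In Delta47 KO2R against KO2 the same lists gave 6 higher and 0 lower of 10 histone genes outside the clusters, 5 higher and 9 lower of 22 for transcription and 3′ end processing, 7 and 12 of 25 S phase genes, 2 and 12 of 16 chaperones, and 2 and 7 of 13 decay and polyadenylation genes, beside 25.2% higher and 36.8% lower of all tested genes. SLBP differed by 0.10 (adjusted p = 0.0154), NPAT by −0.15 (adjusted p = 0.0938) and PCNA by 0.27 (adjusted p = 1.44e-06). H2AFZ differed by 0.32 (adjusted p = 1.04e-06) and H3F3B by −0.06 (adjusted p = 0.163). Chaperones that fell included SUPT6H (−0.80) and CHAF1A (−0.47), and the share of length in these differences was not tested.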

How the data were processed

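RNA was poly(A)-selected, fragmented and sequenced in pairs on the DNBseq platform, per the labels' protocols. The authors deposited 1 table per cell line, in FPKM per gene for OPM2 per the file headers. The Delta47 columns, deposited by the authors without a named unit, were treated as signal. The build is hg19, per the submitters' processing notes, and no aligner or counter was named in the sources used here. In Delta47, 3 columns matched no sample label and were not used. The summed values per library were 510776 to 566016 in OPM2 and 534185 to 633778 in Delta47, which do not give depth.

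Every gene that reached 1 in 3 or more libraries was tested with limma 3.58.1 (R 4.3.3) on log2(value + 1), all groups of a table in 1 fit, with Benjamini-Hochberg adjustment over all tested genes. The fit was tested on simulated data. Members and lists were chosen with earlier results of these data known. Values in every library are given for HIST1H1C, HIST1H2BK, HIST1H2AC and HIST2H2AA3 and the 10 further members with the highest group mean over both tables. Other members are given by range and count or where a call stands alone. Reads of near-identical paralogs may be split between them by the authors' counting.

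Whether replicate numbers pair libraries was checked by the correlation of same-numbered deviations from the group means. In OPM2, 9 of 30 such pairs and in Delta47 4 of 18 were over 0.1, so the numbers were not used as pairs.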

Additional observations from a re-analysis of the deposited data

Results flagged for a closer look

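The changes of the 2 knockout clones of a line against the shared WT differed for 16 members, tested as KO2 minus KO1 with limma at an adjusted p below 0.05. With 3 libraries a group, no test for a single library far from the others was made. In OPM2, HIST2H2BE was higher in KO2 (log2 difference 0.44) and HIST1H2BJ lower (−0.45), out of 19 tested members. Of all tested genes there, 29.9% were called (10.8% higher and 19.1% lower). In Delta47, 14 of 31 tested members were lower in KO2 and 0 higher, where 17.2% of all tested genes were lower and 24.9% higher (42.1% in all). Counted in either direction, the members stood near or below the share of all tested genes in each line. The differences were −1.03 for HIST2H2AA3, −0.74 for HIST1H1C, −0.65 for HIST2H2BE, −0.61 for HIST1H2AC, −0.58 for HIST1H3H and −0.55 for both HIST1H2AE and HIST1H2AM. They were −0.53 for HIST1H2AJ, −0.50 for HIST2H4A, −0.48 for HIST1H2AG, −0.40 for HIST1H3D and HIST1H2AK, and −0.33 for HIST1H2BK and HIST1H2BD. With the trend on transcript length removed, HIST2H2AA3, HIST1H1C, HIST2H2BE, HIST1H2AC, HIST1H3H, HIST1H2AG and HIST1H2BD were still called lower. Each clone is 1 clone, so what FOXM1 loss does and what a clone carries cannot be told apart.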

How the results depend on the processing

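Of 163 recomputed counts of called members, 141 stayed within 1.5 times the reported one with its direction. The shares of all tested genes called under the same settings are not given here, so a moved count is not read as particular to the members. When the fit held no libraries beyond the 2 groups compared, 7 members were called in OPM2 KO1 against WT, 1 in KO2 against WT and 1 in KO2 against KO1. Without KO2 replicate 3 and KO1EV replicate 3, the calls were 7 in KO1 against WT and 5 in KO2 against KO1. With the trend on transcript length removed, Delta47 KO1 against WT had 12 calls (4 higher, 8 lower), KO2 against KO1 9 (2 higher, 7 lower), KO2R against KO2 10 (3 higher, 7 lower) and KO2R against WT 16 (3 higher, 13 lower). With a narrower span of the smoother, chosen after the data were seen, these were 13 (5 higher, 8 lower) in KO1 against WT, 9 (3 higher, 6 lower) in KO2R against KO2 and 16 (3 higher, 13 lower) in KO2R against WT. Among the 14 members given in every library, those of Delta47 KO2R against KO2 that changed sign, with the trend removed and with the narrower span, were HIST1H2BC (−0.10 and −0.10), HIST1H2AM (−0.27 and −0.22), HIST1H2BK (−0.29 and −0.24), HIST2H2BE (−0.0428 and −0.0453), HIST1H2BJ (−0.0669 and −0.0148), HIST2H2AC (−0.29 and −0.24) and HIST1H2BD (−0.33 and −0.34). HIST2H2BE there also changed sign when a replicate was left out (range −0.0607 to 0.0525), as did HIST1H3H in OPM2 KO1R against KO1EV (range −0.0439, without KO1R replicate 2, to 0.215). The cause was not tested.

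Leaving out each replicate in turn gave 0 to 2 calls in OPM2 KO1 against WT (0 without WT replicate 1, where limma gave 5 at an unadjusted p below 0.05), 2 to 4 in KO2 against WT, 1 to 5 in KO2 against KO1, 9 to 10 in KO1R against KO1EV, 10 to 11 in KO1R against KO1 and 11 to 14 in KO1R against WT. In Delta47 the ranges were 12 to 15 in KO1 against WT, 10 to 16 in KO2 against WT, 13 to 15 in KO2 against KO1, 12 to 15 in KO2R against KO2 and 12 to 15 in KO2R against WT. With the replicate number as a block, OPM2 KO1R against KO1EV kept a count of 11 and Delta47 KO2R against KO2 had 19, and no count moved by over 1.5 times. Same-numbered libraries correlated with a median of 0.072 in OPM2 (highest 0.751) and 0.021 in Delta47 (highest 0.201). Some same-numbered libraries of OPM2 thus deviated together, and whether they shared handling was not tested. Delta47 KO2R against KO2EV was not run, since the KO2EV libraries are not analysed here. Depth is unknown, so what it limits cannot be given.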
